A study of Mus musculus with 6 samples.

Results

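Open chromatin inside LINE elements was described in lin-CD34+ cells of EML, a mouse line of blood precursors. LINEs (long interspersed nuclear elements) are copies of retrotransposons, and the regions here are distinct intervals of the ATAC-seq list that lie more than 1000 bp from the nearest transcription start site (TSS) and that the authors annotated to a LINE. The rule found 7223 such intervals among 123217 distinct open intervals away from TSSs and 143365 distinct open intervals in all. They fell into 6326 intervals in L1 elements, 765 in L2, 110 in CR1, 20 in RTE-X and 2 in RTE-BovB. Only 39 further LINE intervals, of 7262 in all, lay within 1000 bp of a TSS, so the limit removed few. Every member was annotated to an intron or to intergenic DNA, and intervals annotated to promoters may carry no repeat label. The 39 therefore do not show how seldom LINEs near TSSs were open. The members nearest to the limit were an L1MB8 interval at 1007 bp from Lhcgr and an L2 interval at −1014 bp from Srrm1, and just outside it were L2a and L2 intervals at 984 bp from Got2 and 972 bp from Bbs12.

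EML cells of the strain B6D2F1 were sorted with magnetic beads and flow cytometry, giving lin-CD34+ cells and lin-CD34- cells. The lin-CD34+ cells were used for ATAC-seq (which marks DNA that a transposase can reach) and for ChIP-seq of STAT3 and SOX4, the lin-CD34- cells for that of GABPa, with 1 library each. Each population also had a control library, titled input and labelled with IgG, of which no list is used here. EML is 1 immortalised line, so the values describe that line and not primary marrow. Without replicates no test between groups was possible: intervals in brackets are exact 95% intervals of a share, or order-statistic 95% intervals of a median, and cover counting error only. The ATAC list holds positions with no score or read count, so its depth is unknown. All 12 blood precursor genes looked up (among them Kit, Cd34, Runx1 and Gata2) had an open interval within 1000 bp of a TSS. So did 6 of 10 genes of mature or other cells, among them Itgam, Adgre1, Col1a1 and Krt5, while Cd3e, Ms4a1, Alb and Epcam had none. The share of all genes with such an interval is not given here, so these counts do not identify the cells.

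L1 elements copy themselves through RNA and reverse transcription, and mouse L1 includes young families (L1Md) with copies that can still move, older rodent families (Lx) and ancient mammalian ones (L1M). L2 is an older LINE family whose copies can no longer move, and CR1 and RTE copies in mammals are likewise old remnants. Cells hold most young L1 copies silent with DNA methylation and repressive chromatin, and old copies have often been worn down to short fragments, some of which serve as enhancers, gene starts or sources of microRNAs.

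Sequence could be shown where a member met a gene start or a microRNA of RefSeq (GRCm38.p6, the assembly also named mm10). Of the 7223 members 5 overlapped one of 32851 promoter windows that run from 250 bases before to 50 after a gene start, and 1 overlapped one of 1005 microRNA hairpins. These 5 lay over 1000 bp from the start the authors' list used, yet on another annotated start. They belonged to L2 (3 intervals, at Hrh1, Gm15517 and Gm40233), L1 (an Lx interval at Gm40766) and CR1 (an L3b interval at Gm34299). Below, the bases are those inside the open interval and before the gene start, 5′ to 3′ on the gene's strand. They are shown because an open interval annotated to a LINE lay beside a start. Whether every base belongs to the element was not checked. Capitals mark GGAA or its reverse complement TTCC, the core that ETS factors such as GABPa bind.
Hrh1 (L2c, chr6:114458413-114458485, plus strand): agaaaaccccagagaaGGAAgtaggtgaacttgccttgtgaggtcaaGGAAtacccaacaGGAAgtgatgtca
Gm15517 (L2, chr7:44261191-44261263, plus strand): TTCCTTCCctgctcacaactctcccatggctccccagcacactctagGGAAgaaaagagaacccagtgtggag
Gm40233 (L2b, chr4:117874451-117874520, plus strand): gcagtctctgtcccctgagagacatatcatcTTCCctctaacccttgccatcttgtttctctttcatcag
Gm40766 (Lx, chr10:114761949-114762032, minus strand): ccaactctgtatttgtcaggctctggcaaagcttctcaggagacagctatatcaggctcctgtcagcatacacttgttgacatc

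The Hrh1 interval (histamine receptor H1) was 73 bp wide, lay in intron 2 of the transcript in the authors' annotation, 54783 bp from its start and within the 250 bases before the start that RefSeq lists, and held GGAA or TTCC 3 times. The Gm15517 bases also held it 3 times, those of Gm40233 once and those of Gm40766 not at all. The core is short and common: at the same place in all 32851 promoter windows, 54.8% held it for the Hrh1 stretch, 55.6% for that of Gm15517 and 54.1% for that of Gm40233. ACAAT (the core SOX factors bind, with ATTGT on the other strand) and TTCNNNGAA (the STAT core, the same on both strands, which can share bases with GGAA or TTCC) matched in none of the 4 stretches. The same windows held ACAAT in 9.31% and TTCNNNGAA in 1.87% of cases for the Hrh1 stretch, so 4 short stretches without them say little. The GC content was 46.6% at Hrh1, against a median of 54.8% at that place of all promoters, 54.8% at Gm15517 against 50.7%, and 47.1% at Gm40233 against 55.7%. No peak of STAT3, SOX4 or GABPa overlapped these 5 intervals.

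The microRNA was mmu-miR-5125, whose 79-base hairpin (chr17:23823291-23823369) shared 73 bases with an open L2c interval of 133 bp in intron 11 of Srrm2, which encodes a splicing scaffold. The nearest listed gene was Tceb2, 5746 bp away. The mature form (chr17:23823339-23823358) lay wholly inside the open interval, and its seed, bases 2 to 8, is in capitals.
mmu-miR-5125: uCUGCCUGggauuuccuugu

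The families differed in number and in how many kinds of element they held. LINE intervals made up 5.86% (5.73 to 5.99) of open intervals away from TSSs, below LTR elements at 7.89% (7.74 to 8.04) and SINEs at 7.356% (7.211 to 7.503). L1 took 87.6% (86.8 to 88.3) of the LINE intervals under 121 element names, and L2 took 10.6% (9.89 to 11.3) under 4. Among L1 names Lx8 was the most frequent with 670 intervals, followed by Lx7 with 335, Lx9 with 316, Lx with 286, Lx5 with 272 and L1_Mus3 with 255. Lx2, Lx8b, Lx5c and L1_Mus4 came next with 239, 222, 168 and 162. Among L2 names L2a had 274 intervals, L2 231, L2b 149 and L2c 111, and 84 of the 110 CR1 intervals were L3. How often a copy was open cannot be read from these counts, since the number of copies in the genome was not used here.

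Grouped by name, 57.1% (55.9 to 58.4) of open L1 intervals were in Lx elements and 22.7% (21.7 to 23.8) in L1M elements. A further 15.5% (14.6 to 16.4) were in elements named L1_Mus, L1_Mur, L1_Rod or L1VL, and 3.64% (3.19 to 4.13), 230 intervals, in L1Md. The remaining 62 had other names such as HAL1. From L1Md over the L1_Mus group and Lx to L1M, the median distance to the next open interval shortened from 3986 bp (2978 to 5504) over 3397 and 2856 bp to 1853 bp (1669 to 1990). The median width went the other way, from 98.5 bp (90 to 109) over 106 and 111 bp to 117 bp (112 to 123). L2, with a gap of 1493 bp (1333 to 1713) and a width of 122 bp (116 to 130), was close to intervals outside repeats, whose gap was 1436 bp (1421 to 1452) and width 125 bp (124 to 125). Of these 92881 intervals outside repeats, 12179 were annotated to places other than introns or intergenic DNA, such as exons. No LINE, LTR or SINE interval was, so the comparisons with intervals outside repeats are not matched on place. Widths and gaps were not compared within introns alone. Open intervals in L1Md were thus narrower and farther from other open intervals than those in L1M.

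**Figure D1:**
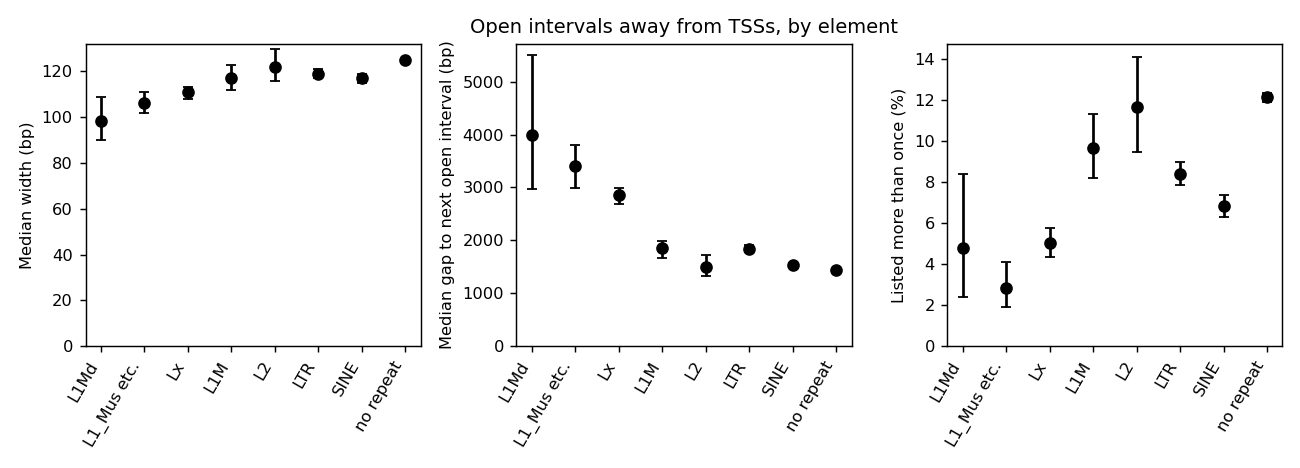
Median width, median gap to the next open interval (both in bp) and share listed more than once (%) for open intervals away from TSSs, by element group. Points are medians or shares and bars their 95% intervals; L1_Mus etc. stands for elements named L1_Mus, L1_Mur, L1_Rod or L1VL. The gap falls from 3986 bp in L1Md to 1853 bp in L1M, and L2 at 1493 bp is close to intervals outside repeats at 1436 bp.

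Width had a floor. No open interval away from TSSs was narrower than 73 bp, and 19.97% (18.99 to 20.97) of L1 intervals, 17.0% (14.4 to 19.8) of L2 intervals and 16.3% (16.1 to 16.6) of those outside repeats were exactly that wide. In L1Md elements the share at the floor was 25.2% (19.7 to 31.3). At the other end, 442 L1 intervals (6.99%, 6.37 to 7.64) and 77 L2 intervals (10.1%, 8.03 to 12.4) were at least 300 bp wide, against 12.7% (12.5 to 12.9) outside repeats. L1 elements accordingly held 6.10% (5.77 to 6.43) of the open intervals at the floor and 3.05% (2.77 to 3.34) of those of 300 bp or more, while the L2 share was 0.628% (0.525 to 0.745) and 0.531% (0.419 to 0.663).

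The widest L1 intervals were in old L1M elements. An L1MD interval of 1197 bp (chr11:107682042-107683238) lay in intron 30 of Helz, an RNA helicase gene. L1ME1 and L1MB4 intervals of 1128 and 1098 bp lay in Cdkal1, a tRNA-modifying enzyme gene, and in Lncenc1, a noncoding RNA gene. The widest L2 intervals were in introns of Samd4, an RNA-binding regulator of translation (L2b, 892 bp, chr14:47086789-47087680), Snx29, a sorting nexin gene (L2, 849 bp), and Filip1l (L2a, 841 bp).

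The list repeats some intervals under further peak names, and the number of entries moved with width. L2 intervals were listed more than once in 11.6% of cases (9.45 to 14.1), as were 12.1% (11.9 to 12.3) of intervals outside repeats, while L1 intervals were in 5.75% (5.19 to 6.36). Within L1 the share was 4.78% (2.41 to 8.40) for L1Md, 2.85% (1.90 to 4.09) for the L1_Mus group, 5.01% (4.32 to 5.77) for Lx and 9.67% (8.19 to 11.3) for L1M. No L1 or L2 interval at the floor was repeated. Of those at least 300 bp wide, 59.5% (54.8 to 64.1) of L1 and 80.5% (69.9 to 88.7) of L2 intervals were, against 71.5% (70.7 to 72.3) outside repeats. The Cdkal1 interval had 7 entries, the most of any member. Among intervals at least as wide as the median of all distinct intervals the repeated share was 14.9% for L1 and 25.4% for L2.

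L1 and L2 also differed in their place relative to genes. The median L1 interval lay 42222.5 bp (39999 to 44445) from the nearest TSS and the median L2 interval 24934 bp (21717 to 29871), against 22335 bp outside repeats. The L1 share of open intervals rose with distance, from 3.42% (3.19 to 3.67) at 1001 to 5000 bp over 3.77%, 4.86% and 5.79% to 9.30% (8.90 to 9.72) at 100001 bp or more. The L2 share did not rise steadily: it was 0.684% (0.580 to 0.800) in the nearest class, then 0.516% (0.443 to 0.597), 0.608% and 0.777% (0.655 to 0.914), and 0.605% (0.501 to 0.724) in the farthest. Within L1 the old L1M group had its lowest share far from TSSs: L1M made up 25.6% (22.5 to 28.8) of open L1 intervals in the nearest class, 29.5% (27.1 to 32.1) in the next and 13.7% (12.2 to 15.4) in the farthest. L1Md went from 2.99% (1.90 to 4.45) to 4.63% (3.71 to 5.70), with intervals that overlap. The list holds intergenic intervals only within 5000 bp upstream of a TSS, so the nearest class differs in make-up from the farther ones. How these shares change with distance in intergenic DNA cannot be read from them.

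**Figure D2:**
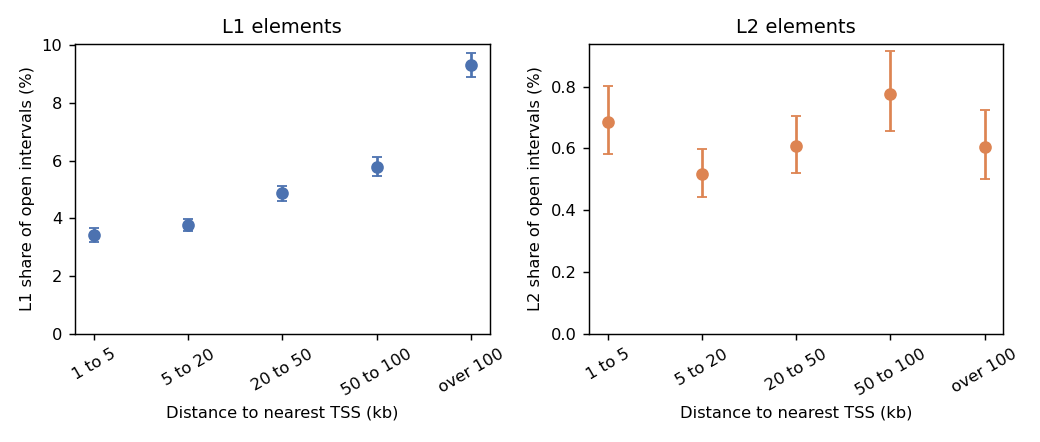
Share of open intervals in L1 (left) and L2 (right) elements (%), by distance to the nearest TSS in kb. Points are shares and bars exact 95% intervals; the vertical scales differ. The L1 share goes from 3.42% to 9.30%, the L2 share from 0.684% to 0.605%.

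Most members were in introns: 5864 of 6326 L1 intervals (92.7%, 92.0 to 93.3) and 695 of 765 L2 intervals (90.8%, 88.6 to 92.8). The others were intergenic, and the list holds intergenic intervals only within 5000 bp upstream of a TSS, which sets these shares. First introns held 29.3% (28.1 to 30.5) of the intronic L1 and 32.1% (28.6 to 35.7) of the intronic L2 intervals, against 30.34% (30.02 to 30.67) outside repeats. Of 6606 intronic members whose transcript could be named, 5510 (83.4%) lay in an intron of the nearest gene and 1096 in an intron of another gene.

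Chromosome 13 carried the largest number of open L1 intervals of all chromosomes. It held 651 of the 6326 L1 intervals (10.3%, 9.55 to 11.1), 39 of the 765 L2 intervals (5.10%, 3.65 to 6.90) and 6.02% (5.87 to 6.17) of intervals outside repeats. Its share of LTR intervals was 7.69% (7.16 to 8.23) and of SINE intervals 5.56% (5.10 to 6.05). L1 made up 8.35% (7.74 to 8.98) of open intervals there, the highest share of the autosomes, with chromosome 3 next at 7.31% (6.65 to 8.01) and chromosome 11 the lowest autosome at 2.78% (2.44 to 3.16). When the genome was read in 276 stretches of 10 Mb, the 5 with most open L1 followed one another on chromosome 13, from 70000001 to 120000000. The 80000001 to 90000000 stretch had 116 open L1 intervals among 601 (19.3%, 16.2 to 22.7), and the others 112, 101, 80 and 73, against a median of 22. The 70000001 to 80000000 stretch had 73 among 487 (14.99%, 11.9 to 18.5). Outside repeats these 2 stretches had 373 and 330 open intervals, against a median of 314, while the other 3 had 713 to 924. Those 3 had 112 L1 among 1053 open intervals (10.6%, 8.84 to 12.7), 101 among 1304 (7.75%, 6.35 to 9.33) and 80 among 1051 (7.61%, 6.08 to 9.38). The median stretch had 422.5 open intervals, and L1 was in 5.13% of all open intervals away from TSSs. A stretch of chromosome 14, from 110000001 to 120000000, had an L1 share of 11.6% (8.91 to 14.8). Over the whole chromosome, the gap to the next open interval was 1163 bp (1023 to 1285) for L1 on chromosome 13 and 2898 bp (2767 to 3009) elsewhere, and outside repeats 1125 and 1458 bp. The L1 intervals of chromosome 13 were wider than others (median 125 against 109 bp), and fewer were at the floor (14.4% against 20.6%). Outside repeats the same values were 129 against 125 bp and 14.6% against 16.5%. In the 3 factor lists chromosome 13 held between 2.81% and 4.24% of peaks away from TSSs.

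**Figure D3:**
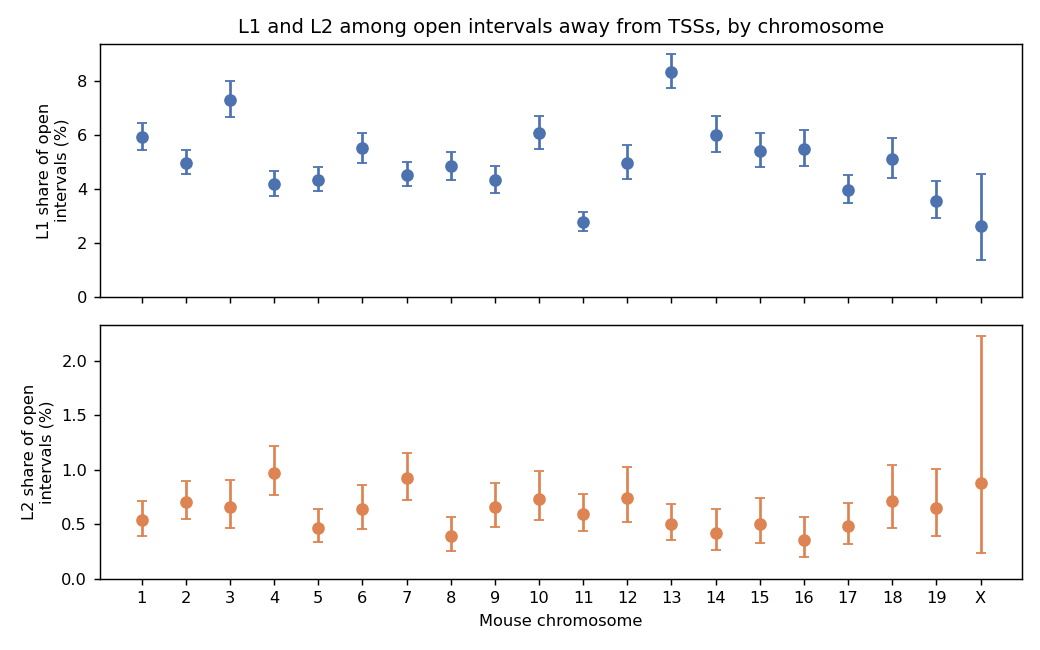
Share of open intervals away from TSSs in L1 (top) and L2 (bottom) elements (%), by mouse chromosome. Points are shares and bars exact 95% intervals; chromosome Y is left out for its few intervals. L1 is highest on chromosome 13 at 8.35% and lowest among autosomes on chromosome 11 at 2.78%.

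Chromosome X, which is rich in L1 sequence in the mouse, held 12 open L1 intervals (0.190%, 0.0981 to 0.331), 4 L2 intervals and 0.395% (0.356 to 0.438) of intervals outside repeats. L1 was in 2.63% (1.36 to 4.54) of the 457 open intervals away from TSSs on X, against 5.13% (5.01 to 5.26) over all chromosomes. The GABPa list from lin-CD34- cells had 99 of 2171 peaks away from TSSs on X (4.56%, 3.72 to 5.52), and 32 of its 621 L1 peaks (5.15%, 3.55 to 7.20). The SOX4 and STAT3 lists of lin-CD34+ cells had 11 of 2856 and 4 of 469 peaks on X. Population, antibody and library cannot be told apart here.

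Each interval was assigned by the authors to its nearest gene, and 3920 of 20350 genes named in the ATAC list (19.3%) had a member, 3434 an L1 interval, 703 an L2 interval and 277 both. Most of these genes, 2576, had a single open LINE interval, and 51 had 10 or more, together 720 intervals. Edil3, which encodes a secreted integrin ligand, had the most, 32 L1 intervals among its 101 open intervals away from TSSs (31.7%, 22.8 to 41.7). All 32 were in its own introns, 73 to 480 bp wide with a median of 179.5 bp, and 19 were Lx elements. The gene 9330111N05Rik had 26 LINE intervals (23 of them L1, and only 6 in its own introns), Adgrv1, an adhesion receptor of the inner ear, 22, and Pde4d, a cAMP phosphodiesterase, 21. These genes are all on chromosome 13, as are 8 of the 20 genes with most members.

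On other chromosomes, several of the genes with most members were long genes of nerve cells and cell adhesion. Csmd3 and Sntg1, which encodes a syntrophin, had 22 L1 intervals each, of 41 and 48 open intervals. Ncam2, a cell adhesion molecule, and Ptprd, a receptor phosphatase, had 18 each, and 1700007B14Rik and the microRNA gene Mir6336 had 17 each. At Sntg1 11 of the 22 were at the 73 bp floor. The 17 intervals nearest Mir6336, a gene of 130 bp, were in introns but lay 202205 to 1451883 bp from its TSS. Nkain2 also had 17, among 28 open intervals (60.7%, 40.6 to 78.5).

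No gene had more than 3 open L2 intervals. The 11 genes with 3 were Abca4, a transporter of the retina, the kainate receptor gene Grik4, the potassium channel gene Kcnh1, the neurotrophin receptor gene Ntrk3, the cation channel gene Trpc7, the neuron navigator genes Nav1 and Nav2, Gsg1l, Slco3a1, Slx4ip and the predicted gene Gm13090. At Nav1 the L2 intervals were 3 of 21 open intervals and at Nav2 3 of 103.

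The L1 share was higher at longer genes. Open intervals nearest to genes of up to 10 kb were in L1 in 3.92% of cases (3.66 to 4.20), those of 10 to 50 kb in 3.48% (3.30 to 3.67), of 50 to 100 kb in 4.78%, of 100 to 300 kb in 5.82% and of over 300 kb in 9.49% (9.06 to 9.94). The L2 share varied without a steady order, with 0.509% (0.415 to 0.618), 0.644%, 0.512% (0.418 to 0.620), 0.727% (0.629 to 0.835) and 0.659% (0.544 to 0.790) in the same classes. A length was found for 17728 of 17763 genes. Gene length and distance to the TSS were not separated, so this is not independent of the rise of the L1 share with distance. The gene lists below were not matched on length.

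Of 30 blood stem and progenitor transcription factor genes, 6 (95% interval 7.71% to 38.6%) were nearest to an open LINE interval, close to the 19.3% of all genes, and 7 of their 424 open intervals (1.65%, 0.666 to 3.37) were in LINEs, against 5.86% of all open intervals. Mecom, a stem cell factor, had 2 L1 intervals among 42, one of them an Lx7 interval of 76 bp in intron 1 (chr3:30493471-30493546). Myb had an Lx8 interval of 75 bp in its intron 15 (chr10:21136883-21136957), Lef1 an L1MA8 interval of 78 bp and Runx3 an L2 interval of 98 bp. Blood receptor genes had 4 of 18 with a member (22.2%, 6.41 to 47.6), all L1, and 6 of their 125 open intervals were in LINEs (4.80%, 1.78 to 10.2). Kit, the stem cell factor receptor, had an L1MA4A interval of 78 bp in intron 13 (chr5:75641782-75641859) among 34 open intervals. Il6ra, the interleukin 6 receptor gene, and Itga4, an integrin gene, had 2 each, and that of Itga4 closest to its TSS lay in an intron of Cerkl. Csf1r had an L1MB5 interval at −3966 bp, upstream of its TSS.

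Genes of LINE silencing or restriction and of DNA methylation, its removal included, had a member in 5 of 26 cases (19.2%, 6.55 to 39.4). This is close to the 19.3% of all genes. Of their 130 open intervals 10 were in LINEs (7.69%, 3.75 to 13.7), against 5.86% of all open intervals, a value inside that interval. Tet2, which oxidises methylated DNA, and Pphln1, of the HUSH silencing complex, had 3 L1 intervals each. That of Tet2 closest to the TSS was an L1MCa interval of 430 bp in intron 1 (chr3:133526339-133526768). The DNA methyltransferase gene Dnmt3a had an L1 and an L2b interval, and Mov10, a helicase that restricts retrotransposons, an L2 interval in intron 2.

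Against the same 19.3% of all genes, 5 of 13 erythroid genes (38.5%, 13.9 to 68.4) had a member, including Rhag, Tspan33 and Ank1, and 4 of 13 myeloid genes (30.8%, 9.09 to 61.4). Both intervals include the value for all genes. Of the open intervals of the erythroid genes, 5 of 79 were in LINEs (6.33%, 2.09 to 14.2), near the 5.86% over all genes. The myeloid members were at Adgre1, with 5 L1 among 10 open intervals, S100a8 with 2 L1 of 2, Csf1r and Mpo, and made up 9 of 54 open intervals (16.7%, 7.92 to 29.3), against 5.86% over all genes. Lymphoid genes had 1 of 14, an Lx8b interval at Ebf1, mast cell and megakaryocyte genes 2 of 10, at Cpa3 and Vwf, and non-blood markers 0 of 15. A share of 0 of 15 genes allows up to 21.8%. Of open intervals, LINEs held 1 of 68 at lymphoid genes (1.47%, 0.0372 to 7.92) and 2 of 49 at mast cell and megakaryocyte genes (4.08%, 0.498 to 14.0). At non-blood markers they held 0 of 64, which allows up to 5.60%, against 5.86% over all genes. The list of long neural genes had the highest share of genes with a member, 20 of 24 (83.3%, 62.6 to 95.3), and 144 of 941 open intervals in LINEs (15.3%, 13.1 to 17.8). It was led by Csmd3, by Nrxn3, a synaptic adhesion gene, with 17, and by Magi2 and Cntnap2 with 15 each.

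Few members met a factor peak, and few of all open intervals away from TSSs did. STAT3 peaks overlapped 9 of the 7223 members (0.125%, 0.0570 to 0.236), against 0.238% of all open intervals away from TSSs. For SOX4 it was 6 members (0.0831%, 0.0305 to 0.181) against 0.102%. For GABPa, mapped in the other population, it was 15 (0.208%, 0.116 to 0.342) against 0.162%. The SOX4 and GABPa intervals include the value of all open intervals, and the STAT3 interval ends just below it. By family, 24 of 6326 L1 and 5 of 765 L2 intervals met a peak of any factor (0.379%, 0.243 to 0.564, and 0.654%, 0.213 to 1.52), with overlapping intervals. The share meeting any factor was not computed over all open intervals, so these 2 shares have no such value beside them. The GABPa peaks were 731 to 2677 bp wide: with 200 bp around the centre of each peak and of each open interval the GABPa share was 0.0692%, and with its peaks above the median score 0.0415%. With peaks above the median score STAT3 had 0.0692% and SOX4 0.0554%. With at least 50% of the open interval covered STAT3 had 0.0831%, SOX4 0.0415% and GABPa 0.166%, and SOX4 again 0.0415% when the centre of the open interval had to lie in the peak.

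The 9 members under STAT3 peaks, 7 in L1 and 2 in L2, were mostly wide, with a median of 561 bp, and 7 were listed more than once. The highest score was at an Lx8 interval of 313 bp in intron 1 of Slc28a2, a nucleoside transporter gene (chr2:122438660-122438972), with 43 tags and a 42.1-fold enrichment as the authors gave it. Next came an Lx9 interval of 80 bp in intron 28 of Ttll5 with 35 tags, and an L1MB8 interval of 454 bp in intron 1 of Cmtm7 with 37. An Lx9 interval of 721 bp upstream of Gm766 had 29 tags, an L2 interval of 849 bp in Snx29 25 and an L1MA6 interval of 495 bp in Rsbn1l 33. In 6 of the 9 the STAT3 peak was itself annotated to a LINE. The highest tag number, 57, was at an L2a interval of 561 bp upstream of Etnk1 (chr6:143164130-143164690), in a peak annotated as intergenic.

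The 6 members under SOX4 peaks were all L1, had a median width of 98.5 bp and none was repeated. They lay at Lin54, of a complex that represses cell cycle genes (17 tags), Spidr, of DNA repair (11), Kif6, a kinesin gene (14), Ttll5 (9), Wdr17 (8) and Malt1, which encodes a protease of immune signalling (8). At Lin54 and Spidr the shared stretch was 25 and 27 bp long. The Ttll5 interval (chr12:85944635-85944714) was the only member under peaks of more than 1 factor, and both its STAT3 and its SOX4 peak were annotated to the same Lx9 element and covered all 80 bp.

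Of the 15 members under GABPa peaks 12 were L1, 2 of these L1Md, and 3 were L2. The highest scores were at an L1M2 interval of 73 bp in Dcun1d1, of the neddylation pathway (25 tags), an L1MB5 interval in Ctif (15 tags) and an Lx3B interval at 4932441J04Rik (24 tags). Slc22a22, Ankrd12 and Prim2, which encodes a primase subunit, followed with 12, 16 and 23 tags. All 15 peaks had 11 to 25 tags, and 8 were themselves annotated to a LINE.

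**Figure D4:**
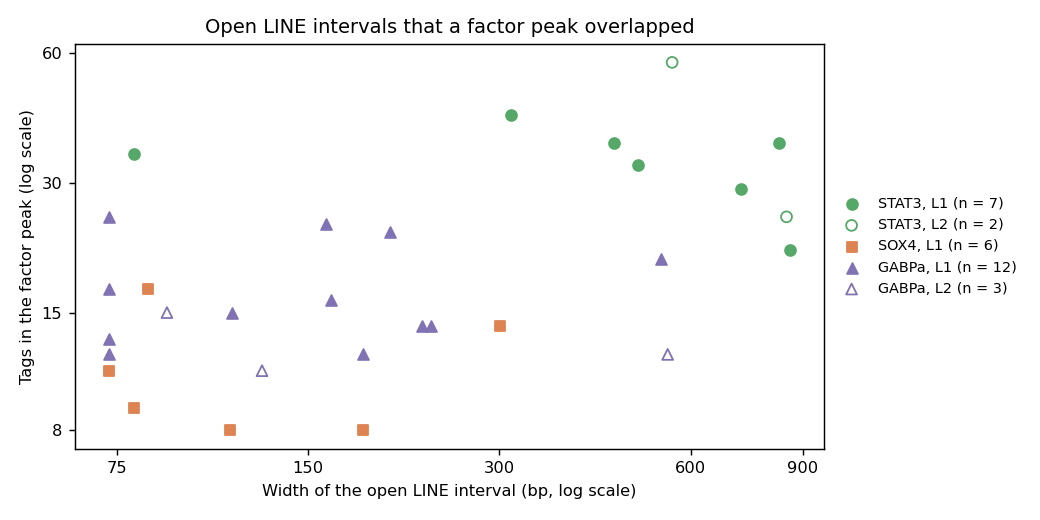
Tags in the factor peak against the width of the open LINE interval it overlapped (bp), both on log scales, for every overlapping pair of members and peaks. Colours and shapes give the factor, filled symbols L1 and open symbols L2. The STAT3 pairs have 21 to 57 tags and a median interval of 561 bp, the SOX4 pairs 8 to 17 tags and 98.5 bp, and the GABPa pairs 11 to 25 tags and 160 bp.

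The SOX4 and GABPa lists differed from the open list in their LINEs, while the small STAT3 list had wide intervals that include the open values. Of peaks away from TSSs, 22 of 469 STAT3 peaks (4.69%, 2.96 to 7.02), 215 of 2856 SOX4 peaks (7.53%, 6.59 to 8.56) and 629 of 2171 GABPa peaks (29.0%, 27.1 to 30.9) were in LINEs. L2 accounted for 2, 12 and 5 of these, so that L2 was 10.6% of LINE intervals in the open list, 9.09% (1.12 to 29.2) in the STAT3 list, 5.58% (2.92 to 9.55) in the SOX4 list and 0.795% (0.259 to 1.85) in the GABPa list. With promoters included the STAT3 share of LINEs was 2.49%. The lists did not differ in LINEs alone. Away from TSSs, SINEs made up 16.7% (15.3 to 18.1) of SOX4, 15.2% (13.8 to 16.8) of GABPa and 9.59% (7.08 to 12.6) of STAT3 peaks. Among open intervals they made up 7.36% (7.21 to 7.50).

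Among GABPa L1 peaks 46.1% (42.1 to 50.1) were in L1Md elements, against 3.64% (3.19 to 4.13) of open L1 intervals, 7 of 202 SOX4 L1 peaks (3.47%, 1.40 to 7.01) and 0 of 19 STAT3 L1 peaks. The GABPa list had 81 peaks in L1Md_A and 55 in L1Md_T, for which the open list had 11 and 15 intervals, and 107 in L1Md_F2 against 142. Lx elements made up 16.6% (13.7 to 19.7) of GABPa L1 peaks and 36.1% (29.5 to 43.2) of SOX4 L1 peaks, below the 57.1% of open L1, and 47.4% (24.4 to 71.1) of STAT3 L1 peaks. L1M elements made up 38.1% (31.4 to 45.2) of SOX4 L1 peaks, above the 22.7% of open L1, and 31.6% (12.6 to 56.6) of STAT3 L1 peaks. The GABPa L1 peaks had a median of 13 tags and 1250 bp, against 14 tags and 890 bp outside repeats.

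**Figure D5:**
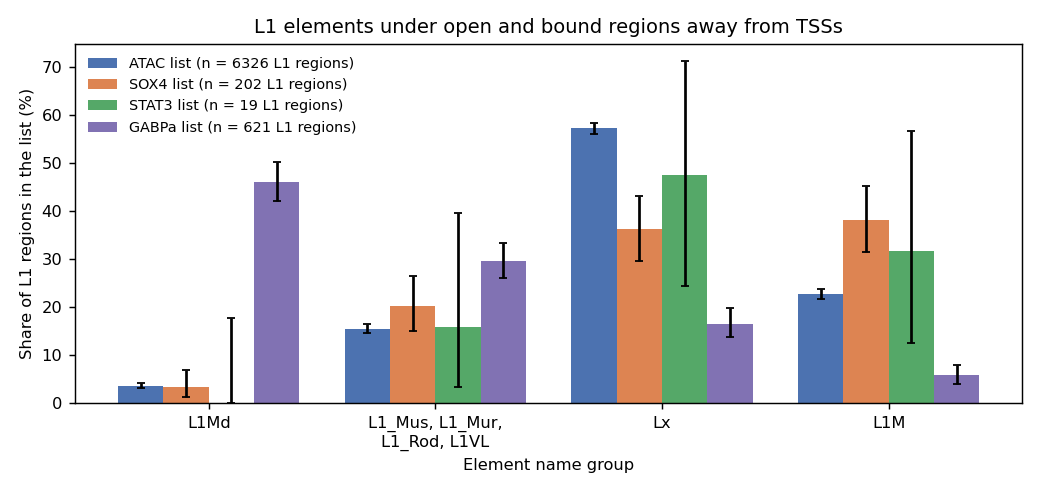
Share of L1 regions in each element name group (%) for the ATAC, SOX4, STAT3 and GABPa lists, all away from TSSs. Bars are shares and lines exact 95% intervals. L1Md holds 46.1% of GABPa L1 peaks in lin-CD34- cells and 3.64% of open L1 intervals in lin-CD34+ cells.

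L1 peaks of the factors were seldom open in lin-CD34+ cells, apart from those of STAT3. Of STAT3 L1 peaks 8 of 19 (42.1%, 20.3 to 66.5) overlapped an open interval of any kind, against 66.7% (61.3 to 71.7) of STAT3 peaks outside repeats. Of SOX4 L1 peaks 3 of 202 did (1.49%, 0.307 to 4.28), against 5.12% (4.16 to 6.23) outside repeats. Of GABPa L1 peaks 15 of 621 did (2.42%, 1.36 to 3.95), against 11.0% (9.04 to 13.2), although these were mapped in lin-CD34- cells.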

How the data were processed

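Per the submitters' processing notes, CASAVA 1.7, Bowtie2, HOMER, SAMtools, Picard and MACS2 were used with mm10, without the role of each. The authors' lists were used as deposited. Per the file headers, the ChIP lists give tag counts, a score (a multiple of the −log10 of the caller's p-value), a fold ratio over background and a false discovery rate in percent for each peak. The ATAC list gives positions, annotation and distance to the TSS, with no score. Its 195295 entries hold 143365 distinct intervals, each counted once. Widths count both ends.

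Overlap needed at least 1 bp. Shares carry exact Clopper-Pearson 95% intervals. Element families and names are the fields of the authors' annotation. The named genes were those with most members, up to 4 a gene list, those at the highest-scoring overlapped intervals and the widest. The members, gene lists and rules were chosen with earlier results of these data known, and the split of L1 names beyond L1Md, Lx and L1M was made after their values were seen, as were the 10 Mb stretches and the gene length classes. Figures were drawn with matplotlib 3.10.9. Values were computed in scipy 1.17.1, pandas 2.3.3 and numpy 2.4.6 under Python 3.11.15. Overlaps, gaps and intervals were tested on simulated data. The sources used here do not say how reads matching several repeat copies were treated.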

Additional observations from a re-analysis of the deposited data

How the results depend on the processing

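No paired analysis was possible because every group had 1 library. Of 152 alternative values 116 stayed inside the 95% interval of the value given (or, for numbers of genes, within 1.5 times), and 36 moved beyond it. With a limit of 5000 bp the LINE share was 6.24%, L1 and L2 were 88.4% and 9.72% of LINEs, the median distances 53733.5 and 40575 bp, the width outside repeats 123 bp and its X share 0.334%, and by construction only far intervals were left. The SOX4 L1 share was then 8.09%, and the GABPa LINE and L1 shares 32.7% and 32.3%. With no limit the LINE share was 5.07%, the width outside repeats 135 bp, its X share 0.685%, and the LINE and L1 shares 2.49% and 2.15% for STAT3 and 24.95% and 24.6% for GABPa. With every entry counted the values were 5.46% LINE, 86.7% L1, 11.4% L2, widths of 117, 143 and 150 bp for L1, L2 and no repeat, and an X share of 0.482% outside repeats. With intervals at least as wide as the median they were 5.01% LINE, 85.9% L1, 12.3% L2, 2.98% L1Md and 26.1% L1M of L1, and 14.9% and 25.4% repeated. Without chromosome 13, an alternative chosen after seeing the data, the L1 gap was 2898 bp. GABPa peaks above the median score had 21.9% LINE and 21.3% L1, and overlapped 0.0415% of members, and with fixed 200 bp widths 0.0692%. No LINE family carried a question mark, so joining such families changed nothing.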
